A study of Mus musculus with 36 samples.

Results

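Control macrophages of the mouse heart that carried the chemokine receptor CCR2 were compared with those that lacked it, after both had been sorted from hearts injured by ischemia. The comparison used 10 of the 36 libraries of the study, chosen by their labels: 5 CCR2-positive (CCR2pos) and 5 CCR2-negative (CCR2neg) libraries of TFEBwt CX3CR1-Cre cells, numbered 1 to 5 in each fraction and paired by that number. Each gene was described across all 12795 genes of the count table. The animals carried a tamoxifen-dependent Cx3cr1-er-Cre and a Td-Tomato reporter behind a floxed stop, and TFEBwt means that they had no TFEB expression cassette. Tamoxifen was fed for 7 days, ischemia lasted 90 min, and the cells were sorted 7 days after it. These conditions were shared by all 36 libraries, so no library came from an uninjured heart. The 26 other libraries were TFEBwt Cre-neg (5 a fraction), TFEBTG Cre-neg (4 a fraction) and mac-TFEB cells (4 a fraction). TFEBTG Cre-neg cells had a TFEB cassette behind a floxed stop and, by their label, no Cre. The mac-TFEB cells had Cre and the TFEB cassette, hence TFEB overexpression. What set Cre-neg cells apart was not given beyond that label, and the growth protocol named Cx3cr1-er-Cre for every sample. Whether they came from animals without Cre or were Td-Tomato-negative cells of animals with it was not stated. The labels gave no sex or age, and did not say whether a numbered library held 1 animal or a pool.

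CCR2 is the receptor for CCL2 and related chemokines and guides monocytes from the blood into injured tissue. In the heart, macrophages with CCR2 are known to be replaced from circulating monocytes and to be more inflammatory. Those without it are known to be seeded before birth, to renew themselves in place and to clear dead cells. Well-known surface markers of the resident cells are TIMD4 and LYVE1, and newly arrived monocytes carry LY6C. CX3CR1 is a second chemokine receptor that many tissue macrophages carry, and here it drove the Cre.

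The 10 libraries held 14942156 to 24518057 counts each and detected 12359 to 12753 of the 12795 genes. Mitochondrial genes took 0.460 to 1.03% of the counts, a share that was lower in CCR2pos in 4 of 5 pairs (two-sided exact sign-flip permutation test, p = 0.1875, where 5 pairs allow no p below 0.0625, so that the test could not reach 0.05). Libraries with the same number deviated together from their group means, with correlations of 0.221 to 0.537 over 7319 genes. The 2 libraries numbered 3 stood furthest from the rest on the first and second principal components, so counts are also given without them. All 10 macrophage markers fixed for the check were present in every library.
Levels are in CPM, read counts scaled to the library total after its adjustment by TMM, edgeR's scaling factor. The pan-macrophage gene Adgre1, which encodes F4/80, lay at 2053 to 3132 CPM in CCR2neg and 2937 to 3457 CPM in CCR2pos libraries. Cd68, an endosomal glycoprotein of macrophages, lay at 1909.6 to 2382 and 1931 to 2512 CPM. The lowest of the 10 markers, Mertk, was still at 164 to 198 and 129.7 to 207 CPM.

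The sort receptor followed the labels in every library. Ccr2 (chr9:124101950-124113557) was at 75.9, 47.1, 51, 30.5 and 31.4 CPM in CCR2neg libraries 1 to 5 and at 1028, 710.5, 835, 669 and 407 CPM in CCR2pos libraries 1 to 5. The fractions did not overlap, and CCR2neg library 1 and CCR2pos library 1 were the highest of their fractions. The difference was 15.8-fold, a log2 fold change of 3.98 ± 0.24 (standard error). Ccr2 was the gene of the gate, so its difference checks the labels and is no result. Cx3cr1, the gene that drove the Cre, was at 537, 473, 260.2, 449 and 429.8 CPM in CCR2neg and 567, 484, 278, 370.1 and 443 CPM in CCR2pos libraries. Its levels overlapped throughout, with both libraries numbered 3 the lowest of their fractions and a log2 fold change of 0.00 ± 0.10 (adjusted p = 0.998, edgeR's quasi-likelihood test). Tfeb, the lysosomal transcription factor manipulated elsewhere in the study, was low in both, at 6.66 to 8.86 and 4.42 to 11.5 CPM, and did not pass the test (log2 -0.27 ± 0.25, adjusted p = 0.622).

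Genes higher in CCR2pos cells included members of the lists for class II antigen presentation, C-type lectins, chemokines and cytokines. Genes higher in CCR2neg cells included 3 scavenger receptors, 4 of 20 resident macrophage markers and 5 of 10 serous-cavity macrophage genes. Of 12795 genes, 552 passed an adjusted p of 0.05 (4.31%), 345 of them higher in CCR2pos libraries (2.7%) and 207 lower (1.62%). The test was edgeR's quasi-likelihood F-test over all 36 libraries with the number as a block, and called means past this threshold. The median size of a called difference was 1.56-fold, 144 exceeded 2-fold and 36 exceeded 4-fold. Of the 552, 505 went the same way in all 5 pairs, and for 280 the fractions did not overlap. Over all genes 262 did not overlap with CCR2pos above (2.05%) and 189 with CCR2pos below (1.48%), 451 in all (3.52%). Scaling to plain library totals, chosen after seeing the data, moved the median log2 fold change of all genes from -0.01 to -0.12 and turned the split to 198 higher and 407 lower, with the direction of each of the 552 kept. Directions are therefore given relative to the median gene.

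The libraries carried no strand, so reads of genes that overlap cannot be told apart. In the annotation an exon of another gene covers 18.9% of the exon bases of Napsa, 18.7% of Tcim, 10.7% of Cd9, 10.4% of H2-DMa, 9.93% of Selp and 9.51% of Il4ra on the opposite strand, and 12.4% of Serpinb2 and 9.47% of Neurl1a on the same strand.

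Most calls rested on the pairing. Without the number as a block 102 genes passed, all among the 552. Of the genes named in the text 30 also passed without it: Ccr2, Cd209a, Spon1, Ccl8, Flrt3, Dpp4, Sirpb1a, Cfb, Gpr141, Clec4b1, Ear2, Napsa, Osm, Tnip3, Tnfsf14, Flt3, Fcgr2b, Ctsk, Cxcl13, Tcim, Sgce, Cdr2, Prg4, Ly6e, Ms4a4c, Nr4a3, Pdlim1, Sirpb1b, Tmem176a and Tmem176b. Without both libraries numbered 3 the count was 329 genes, of which 291 were among the 552, and without CCR2neg library 3 alone 366. The lower calls numbered 113 without number 3, 119 without CCR2neg library 3 and 128 without number 5. Whether libraries of a number came from separate animals is not stated, so the p-values measure the spread between these samples.

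**Figure D1:**
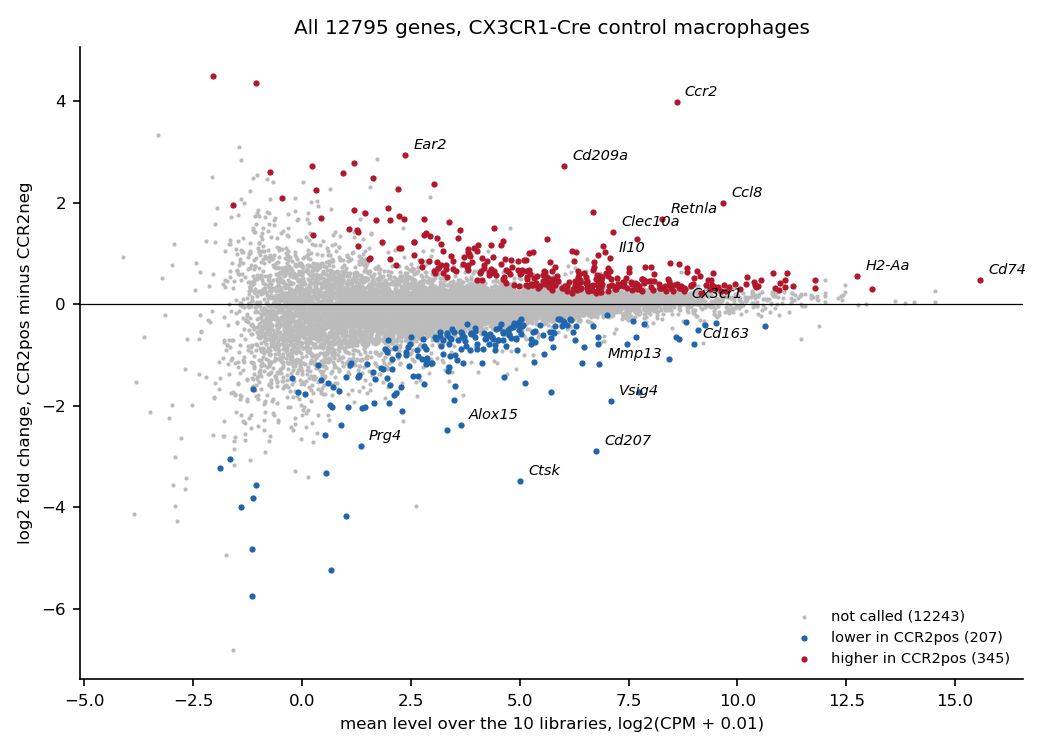
Log2 fold change (CCR2pos minus CCR2neg, vertical axis) against the mean level over the 10 libraries (horizontal axis, log2(CPM + 0.01)) for 12795 genes, each a point. The 345 genes higher in CCR2pos libraries are red and the 207 lower ones blue. Ccr2 stands at 3.98, while Ctsk, Cd207, Prg4, Alox15 and Vsig4 lie lowest, in that order, among the genes that carry a name.

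Genes of MHC class II presentation were higher in CCR2pos cells. This machinery loads peptides from engulfed material onto class II molecules for display to helper T cells: H2-Aa, H2-Ab1 and H2-Eb1 encode chains of the displayed molecules, Cd74 the invariant chain that escorts them, and the H2-DM genes the editor that swaps in the peptide. Of the 11 measured members 6 rose and none fell, against 2.7% higher over all genes, and the median log2 fold change was 0.47 against -0.01 for all genes. H2-Aa was at 5050.5, 5222, 5441, 6649 and 5605 CPM in CCR2neg libraries 1 to 5 and at 9379, 7409.6, 8408, 8517 and 7269.6 CPM in CCR2pos libraries 1 to 5. Every CCR2pos library was above every CCR2neg library, with CCR2pos library 1 the highest (log2 0.56 ± 0.11, adjusted p = 0.0016). Cd74, among the most abundant transcripts of the cells, was at 36343, 36855, 42181, 48980.4 and 39787 CPM in CCR2neg and 64169.6, 49060.2, 66023, 53713 and 50686 CPM in CCR2pos libraries. Here too the fractions did not overlap (log2 0.48 ± 0.10, adjusted p = 0.00494).

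The peptide editor genes moved with them by less than 2-fold. H2-DMa rose by 0.37 ± 0.09, H2-DMb1 by 0.39 ± 0.10 and H2-DMb2 by 0.63 ± 0.12 on the log2 scale (adjusted p = 0.0111, 0.0184 and 0.00189). H2-Eb1 was at 2589.8, 2589, 3134, 3404 and 3036 CPM in CCR2neg and 4227, 4075, 3947, 4695 and 3451 CPM in CCR2pos libraries. Its groups did not overlap and it passed narrowly (log2 0.47 ± 0.13, adjusted p = 0.0371). H2-Ab1 narrowly missed the threshold, at an adjusted p that rounds to 0.05, with log2 0.49 ± 0.14, and it was higher in all 5 pairs. Ciita, the master transactivator of class II genes, was at 30.03 to 44.3 CPM in CCR2neg and 36.6 to 57 CPM in CCR2pos libraries and did not pass (log2 0.39 ± 0.15, adjusted p = 0.154). The class II protease gene Ctss and the inhibitors of the editor H2-Oa and H2-Ob did not pass either. H2-Aa, H2-DMb2 and Cd74 stayed past the threshold in each of 15 fits that left out a number or a single library. H2-Eb1 lost it in 12 of them, H2-DMb1 in 7 and H2-DMa in 4, among them the fits without number 1 and without number 3. None of 15 measured genes of MHC class I presentation was called, and B2m, their shared light chain, had a log2 fold change of 0.16 ± 0.06 (adjusted p = 0.136).

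The promoters of 4 called class II genes are shown, chosen after the motif search and because these genes rose together. Class II promoters are known to share a block of S, X and Y boxes upstream of the start, and the Y box is a reversed CCAAT. The windows run from 250 bases before the annotated start to 50 after it (RefSeq, GRCm38.p6), and capitals mark each CCAAT or its reverse complement ATTGG, searched on both strands. The H2-Aa window is chr17:34287774-34288073 on the minus strand, and those of H2-Eb1, H2-DMb1 and H2-DMb2 are chr17:34305617-34305916, chr17:34152941-34153240 and chr17:34144999-34145298 on the plus strand.
H2-Aa: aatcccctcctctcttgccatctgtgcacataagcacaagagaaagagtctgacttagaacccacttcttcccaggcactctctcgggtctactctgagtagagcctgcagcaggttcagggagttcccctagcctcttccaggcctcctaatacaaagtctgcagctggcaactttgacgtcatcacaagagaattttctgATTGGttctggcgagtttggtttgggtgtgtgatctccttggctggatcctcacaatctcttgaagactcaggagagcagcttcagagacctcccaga
H2-Eb1: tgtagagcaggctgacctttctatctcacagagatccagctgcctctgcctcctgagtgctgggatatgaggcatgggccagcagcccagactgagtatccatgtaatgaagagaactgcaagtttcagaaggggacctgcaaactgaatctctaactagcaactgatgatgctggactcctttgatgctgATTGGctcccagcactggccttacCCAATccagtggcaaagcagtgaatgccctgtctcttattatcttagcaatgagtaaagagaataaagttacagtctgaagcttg
H2-DMb1: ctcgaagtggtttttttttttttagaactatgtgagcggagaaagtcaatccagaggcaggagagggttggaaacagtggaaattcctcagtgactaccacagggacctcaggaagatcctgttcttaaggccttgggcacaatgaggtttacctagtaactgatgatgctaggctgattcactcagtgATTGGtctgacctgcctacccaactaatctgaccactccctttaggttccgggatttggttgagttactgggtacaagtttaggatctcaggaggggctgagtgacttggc
H2-DMb2: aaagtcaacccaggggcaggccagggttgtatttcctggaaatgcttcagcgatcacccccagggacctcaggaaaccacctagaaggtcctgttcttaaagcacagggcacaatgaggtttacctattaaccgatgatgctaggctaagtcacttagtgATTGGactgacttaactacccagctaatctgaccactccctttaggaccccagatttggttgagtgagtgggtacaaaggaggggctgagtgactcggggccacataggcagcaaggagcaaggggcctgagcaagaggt
An ATTGG began 48 bases before the start in H2-Aa, 59 in H2-Eb1, 61 in H2-DMb1 and 90 in H2-DMb2. H2-Eb1 held a CCAAT as well, 35 bases before the start. The called gene H2-DMa has 2 annotated windows, not printed: 1 held no match, and the other held an ATTGG 198 bases before the start. Of the 9 windows found for 8 class II genes 7 held the motif. Of all 32851 windows of this length 37.4% held the motif in either orientation, and a match is a description of these letters only.

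Several lectin receptors were higher in CCR2pos cells. C-type lectins of macrophages and dendritic cells bind sugars on microbes and dying cells, and Toll-like receptors sense microbial products. Of 23 measured members 9 rose and none fell, against 2.7% higher and 1.62% lower over all genes. The median log2 fold change was 0.33. Cd209a, a mouse homologue of DC-SIGN, was at 17.9, 15.4, 36.8, 6.31 and 13.8 CPM in CCR2neg libraries 1 to 5 and at 108, 84.9, 109.6, 144 and 109 CPM in CCR2pos libraries 1 to 5. The lowest CCR2pos library was above the highest CCR2neg library, which was number 3 (log2 2.72 ± 0.36, adjusted p = 1.86e-05). Clec4b1 was at 29.8, 32.4, 24.5, 26.7 and 30.8 CPM in CCR2neg and 71.4, 60.8, 70.7, 72 and 76.9 CPM in CCR2pos libraries. Both groups were tight and apart (log2 1.29 ± 0.14, adjusted p = 5.44e-07). Clec10a, a galactose-binding lectin linked to alternative activation, was at 116, 63.8, 83.6, 77.4 and 46 CPM in CCR2neg and 214, 190.2, 314, 191 and 115 CPM in CCR2pos libraries. CCR2pos library 5 fell just below CCR2neg library 1, and all 5 pairs rose (log2 1.43 ± 0.17, adjusted p = 4.97e-06). Clec4a1, Clec4a2, Clec4a3 and Clec4n, neighbours of Clec4b1 on chromosome 6, rose by 0.38, 0.38, 0.41 and 0.37 on the log2 scale, and reads of such close relatives can be split between them. Cd14, the co-receptor for endotoxin, rose by 0.30 ± 0.07, and Tlr1 by 0.64 ± 0.14. Cd209a, Clec4b1, Clec10a, Clec4a2, Clec4a3 and Tlr1 kept the call in all 15 fits with libraries left out, Clec4n lost it in 9, Cd14 lost it without CCR2pos library 1 and Clec4a1 without number 3.

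Fc receptors bind antibody-coated targets and scavenger receptors take up modified lipoproteins and debris. In a list of 15 that held both, 3 rose, 3 fell and 9 did not pass, where 2.7% of all genes rose and 1.62% fell. The list median was a log2 fold change of 0.02. The 3 that rose were Fc receptors for IgG: the inhibitory Fcgr2b (log2 0.48 ± 0.08), Fcgr1 (0.38 ± 0.07) and Fcgr4 (0.38 ± 0.09). Fcgr2b lay at 528 to 648 CPM in CCR2neg and 703 to 920.3 CPM in CCR2pos libraries. The 3 that fell were scavenger receptors, Cd163 (log2 -0.78 ± 0.15), Cd36 (-0.51 ± 0.13) and Colec12 (-0.71 ± 0.18). Fcgr2b, Fcgr1 and Cd163 stayed past the threshold in all 15 fits with libraries left out, and Fcgr4, Cd36 and Colec12 each lost it in 4. Endothelial cells also express Cd36, and the summed endothelial list was 587 to 989 CPM in CCR2neg and 454 to 562 CPM in CCR2pos libraries, whose part in the Cd36 value was not tested.

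**Figure D2:**
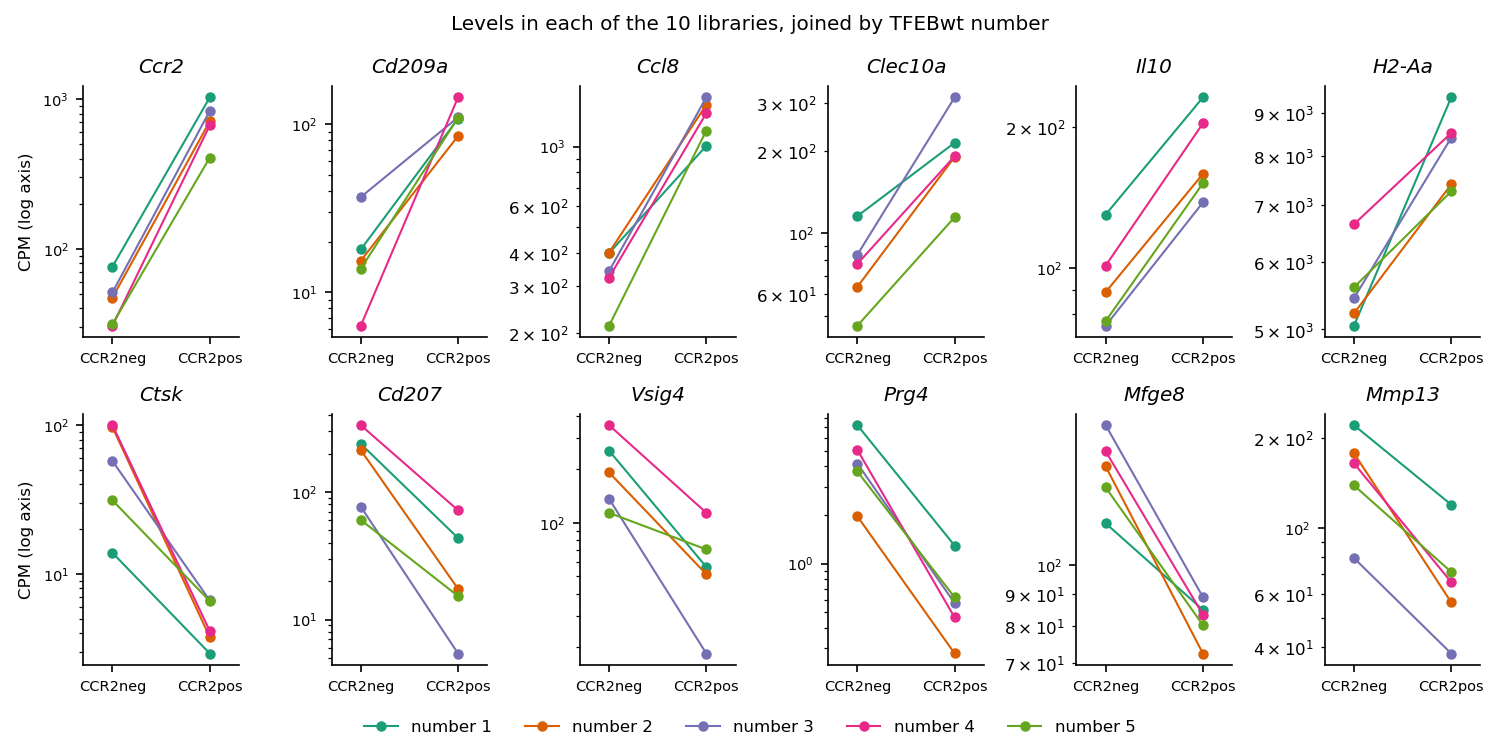
Levels of 12 genes in the 10 libraries (CPM, log axis), with lines joining the CCR2neg and CCR2pos libraries of a number. The upper row rises and the lower row falls in all 5 pairs. H2-Aa spans less than 2-fold, whereas Ctsk falls from between 13.9 and 100.3 CPM to between 2.91 and 6.62 CPM.

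The list of monocyte and recruited macrophage genes had 4 of 20 members higher and 1 lower, against 2.7% higher and 1.62% lower over all genes, with a median log2 fold change of 0.06. Ly6c2, which encodes the LY6C antigen, was at 0.529, 0.225, 0, 0.448 and 0.777 CPM in CCR2neg and 1.89, 2.83, 3.35, 1.65 and 0.742 CPM in CCR2pos libraries. It was close to the detection limit in both fractions, and CCR2pos library 5 was inside the CCR2neg range (log2 2.25 ± 0.59, adjusted p = 0.0222). It lost the threshold in 7 of the 15 fits with libraries left out. Plac8, another gene of young monocytes, was at 10.3, 3.65, 3.24, 4.84 and 3.15 CPM in CCR2neg and 15.6, 11.7, 27.7, 16.2 and 7.18 CPM in CCR2pos libraries. It was higher in all 5 pairs, with some overlap through CCR2neg library 1 (log2 1.61 ± 0.31, adjusted p = 0.00157). Napsa, an aspartic protease gene, rose by 1.0 ± 0.16 with no overlap, and Ifitm6, of an interferon-induced family, by 0.80 ± 0.17. Itgal, the alpha chain of the integrin LFA-1, fell by 0.69 on the log2 scale (adjusted p = 0.00528).

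Of 19 measured dendritic cell markers 4 rose in CCR2pos libraries (Cd209a, Dpp4, Flt3 and Ccr7) and none fell, against 2.7% and 1.62% over all genes. The list median was a log2 fold change of 0.19. Flt3, the growth factor receptor of dendritic cell progenitors, was at 4.02, 2.36, 1.12, 2.87 and 1.76 CPM in CCR2neg and 9.38, 6.44, 7.91, 8.77 and 6.37 CPM in CCR2pos libraries. The groups did not overlap (log2 1.68 ± 0.35, adjusted p = 0.00397). Dpp4, a membrane peptidase found on several dendritic and lymphoid cells, was at 2.13 to 4.88 CPM in CCR2neg and 7.73 to 17.4 CPM in CCR2pos libraries (log2 1.68 ± 0.31). Ccr7, the receptor that leads mature dendritic cells to lymph nodes, rose by 0.57 ± 0.16 (adjusted p = 0.0418) but lost the threshold in 13 of the 15 fits with libraries left out. The summed level of the dendritic cell list was 1912 to 2161 CPM in CCR2neg and 1884 to 2655 CPM in CCR2pos libraries and was higher in 3 of 5 pairs. In bulk samples more cells of a type and more RNA per cell cannot be told apart. The part of dendritic cells in the class II and lectin differences was not tested.

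Alternative activation is a state induced by IL-4 and IL-13 and associated with repair. Of its 12 measured genes 4 rose in CCR2pos cells (Retnla, Ear2, Il4ra and Clec10a) and 1, Ccl24, fell, against 2.7% and 1.62% over all genes. Retnla, a secreted protein of this state, was at 54.9, 642, 106, 66.5 and 39.8 CPM in CCR2neg libraries 1 to 5 and at 155, 1219, 381, 209 and 208 CPM in CCR2pos libraries 1 to 5. Both libraries numbered 2 were several times higher than the rest of their fractions, and CCR2pos was higher within each of the 5 pairs (log2 1.68 ± 0.31, adjusted p = 0.00122). Ear2, an eosinophil-associated ribonuclease with near-identical relatives, was at 0.90, 1.01, 2.66, 0.941 and 0.368 CPM in CCR2neg and 5.07, 15.2, 10.04, 8.52 and 7.18 CPM in CCR2pos libraries. The fractions did not overlap, although all CCR2neg values were near zero (log2 2.94 ± 0.39, adjusted p = 1.66e-05). Il4ra, the shared receptor chain for IL-4 and IL-13, rose by 0.51 ± 0.10 from 420.2 to 610.1 CPM on average. Arg1, the arginase of this state, did not pass and had a log2 fold change of -0.72 ± 0.30 (adjusted p = 0.183).

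Chemokine genes differed in both directions. Of 22 measured chemokine genes 5 rose (Ccl6, Ccl7, Ccl8, Ccl12 and Cxcl10) and 2 fell (Ccl24 and Cxcl13), against 2.7% and 1.62% over all genes. Ccl8, a monocyte attractant of the CCL2 family, was at 398, 400.4, 341, 323 and 213 CPM in CCR2neg libraries 1 to 5 and at 1006, 1435, 1528, 1334 and 1148 CPM in CCR2pos libraries 1 to 5. The lowest CCR2pos library, number 1, lay far above the highest CCR2neg library (log2 2.0 ± 0.21, adjusted p = 5.44e-07). Its neighbours on chromosome 11, Ccl7 and Ccl12, which also bind CCR2, rose by 0.42 ± 0.11 and 0.40 ± 0.11, while Ccl6 rose by 0.62 ± 0.11. Cxcl13, which attracts B cells, was at 384, 295, 211, 655 and 122 CPM in CCR2neg and 73.1, 40.6, 115, 131 and 99.8 CPM in CCR2pos libraries. It was lower in all 5 pairs, least so in number 5 (log2 -1.73 ± 0.36, adjusted p = 0.00332). Among 13 receptor genes Ccrl2, Cxcr3, Fpr2 and Ccr7 rose and Gpr183, an oxysterol receptor, fell. Ccrl2, a decoy that concentrates chemerin, rose by 0.63 ± 0.09 in all 5 pairs without overlap. Ccl8, Ccl6, Cxcl13 and Ccrl2 kept the call in all 15 fits with libraries left out, whereas Ccl12 lost it in 13, Ccl7 in 5, Fpr2 in 5, Cxcl10 in 6, Cxcr3 in 8, Ccl24 in 11 and Gpr183 in 13.

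Cytokine genes of both inflammatory and restraining kinds were higher in CCR2pos cells. Of 20 listed cytokine and NF-kB genes 6 rose and none fell, against 2.7% and 1.62% over all genes. The list median was a log2 fold change of 0.20. Il10, the anti-inflammatory cytokine, was at 130.1, 89.1, 75.6, 101 and 77.3 CPM in CCR2neg and 231, 159, 138, 203 and 152 CPM in CCR2pos libraries. The fractions did not overlap (log2 0.90 ± 0.10, adjusted p = 2.17e-06). Il1b, the inflammatory cytokine, was at 525, 373, 284, 435 and 459 CPM in CCR2neg and 874, 499, 436, 813 and 678 CPM in CCR2pos libraries. It rose in all 5 pairs with overlapping ranges (log2 0.66 ± 0.13, adjusted p = 0.00243). Il1rn, which blocks the IL-1 receptor, rose by 0.71 ± 0.16, Osm, an IL-6 family cytokine, by 0.57 ± 0.10, Tnfsf14, a T cell co-stimulator, by 1.12 ± 0.23, and Tnip3, an inhibitor of NF-kB signalling, by 1.02 ± 0.14. All 6 kept the call in each of the 15 fits. Il10, Il1b and Il1rn lost it without the block.

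Among interferon-induced genes 3 of 20 rose and none fell, against 2.7% and 1.62% over all genes. The 3 were Irf7 (log2 0.49 ± 0.10), Ifi44 (1.47 ± 0.32) and Isg15 (0.39 ± 0.11). A positive fold change was found for 18 of 20, at a list median of 0.20. Irf7, the regulator that amplifies type I interferon, was at 239 to 327 CPM in CCR2neg and 326 to 459 CPM in CCR2pos libraries. Isg15 lost the threshold in 14 of the 15 fits with libraries left out and Ifi44 without number 3. Complement showed 1 call among 12 members, where 4.31% of all genes were called. It was Cfp, the stabiliser properdin, which rose by 0.53 ± 0.13 and lost the call in 5 of the 15 fits. Cfb, the factor B of the alternative pathway, was at 3.43 to 4.21 CPM in CCR2neg and 6.36 to 19.4 CPM in CCR2pos libraries and rose by 1.39 ± 0.20. The annotation gives a further transcript that shares 79.5% of the Cfb exon bases.

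Other genes with large increases came from no list. Flrt3, an adhesion protein that binds latrophilins, was at 63.1, 31.5, 36, 37.8 and 61.1 CPM in CCR2neg and 172, 125, 167, 176 and 156 CPM in CCR2pos libraries. The groups lay well apart (log2 1.82 ± 0.30, adjusted p = 0.000306). Spon1, a secreted matrix protein, rose by 2.38 ± 0.45 from a mean of 2.41 CPM, and Sirpb1a, an activating receptor of the SIRP family, by 1.5 ± 0.15 with no overlap. Gpr141, an orphan receptor, rose by 1.31 ± 0.20, and Rab11fip1, an effector of recycling endosomes, by 1.3 ± 0.30 in 4 of 5 pairs. The last call was lost in 3 of the 15 fits with libraries left out, each time without number 1, number 4 or CCR2pos library 4. Hbegf, an EGF receptor ligand, was the only call among 17 growth factor and repair genes (log2 0.49 ± 0.11), where 4.31% of all genes were called.

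In CCR2neg cells the gene with the largest excess at moderate level was Ctsk. It encodes cathepsin K, a lysosomal collagen-degrading protease best known from osteoclasts. It was at 13.9, 97.2, 57.5, 100.3 and 31.3 CPM in CCR2neg libraries 1 to 5 and at 2.91, 3.75, 6.62, 4.13 and 6.56 CPM in CCR2pos libraries 1 to 5. CCR2neg library 1 was the lowest of its fraction and was still above all CCR2pos libraries (log2 -3.48 ± 0.33, adjusted p = 1.74e-07). Atp6v0d2, a proton pump subunit also known from osteoclasts, fell from a mean of 63 to 31.7 CPM (log2 -0.97 ± 0.18). These were the 2 lower calls among 26 lysosomal genes, beside 1 higher, against 1.62% lower and 2.7% higher over all genes. The higher call, Ctsc (0.31 ± 0.09), was lost in 10 of the 15 fits. Mmp13, a collagenase, was at 221, 178, 79.4, 165 and 139 CPM in CCR2neg and 119.8, 56.4, 38, 66 and 71.3 CPM in CCR2pos libraries. It fell in all 5 pairs, with overlap only through CCR2neg library 3 (log2 -1.18 ± 0.14, adjusted p = 2.83e-06). It was the only call among 14 matrix protease and inhibitor genes, where 4.31% of all genes were called.

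Resident macrophage markers were split. Of 20 listed markers 4 fell in CCR2pos cells (Timd4, Cd163, Vsig4 and Ccl24) and none rose, against 1.62% and 2.7% over all genes. The other 16 did not pass, 11 of the 20 had a positive fold change, and the list median was 0.02. The summed list was 14690 to 17443 CPM in CCR2neg and 15207 to 17579 CPM in CCR2pos libraries. This sum was higher in CCR2pos in 4 of 5 pairs. Vsig4, a complement receptor of resident macrophages, was at 255, 192, 137, 355 and 114 CPM in CCR2neg and 56.4, 51.4, 18.4, 114 and 70.8 CPM in CCR2pos libraries. It was lower in all 5 pairs, least so in number 5, whose CCR2neg level matched the CCR2pos level of number 4 (log2 -1.91 ± 0.25, adjusted p = 1.66e-05). Timd4, the phosphatidylserine receptor used to mark resident cells, was at 133, 106, 74.3, 143 and 124 CPM in CCR2neg and 35.6, 35.1, 32.5, 87.3 and 98.2 CPM in CCR2pos libraries. CCR2pos libraries 4 and 5 reached the CCR2neg range, and the call (log2 -1.15 ± 0.27, adjusted p = 0.00909) was lost without number 2, CCR2neg library 2 or CCR2neg library 3. Cd163, the haemoglobin scavenger receptor, was at 592, 523, 777, 799 and 567 CPM in CCR2neg and 276, 333, 409, 467 and 410.4 CPM in CCR2pos libraries. The groups did not overlap (adjusted p = 0.00222). Lyve1, the hyaluronan receptor, did not pass and was at 360.4, 338, 429, 421 and 515 CPM in CCR2neg and 233, 233, 237, 396 and 479 CPM in CCR2pos libraries (log2 -0.47 ± 0.18, adjusted p = 0.155).

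Efferocytosis, the engulfment of dying cells, had 4 lower members of 17 (Mfge8, Timd4, Cd36 and Lrp1) and none higher. Over all genes 1.62% were lower and 2.7% higher. Mfge8, a secreted bridge between dying cell and phagocyte, was at 117, 143, 167, 152 and 133 CPM in CCR2neg and 84.9, 72.4, 89, 83.5 and 80.3 CPM in CCR2pos libraries. The lowest CCR2neg library was above the highest CCR2pos library (log2 -0.78 ± 0.16, adjusted p = 0.00397). Lrp1, a large endocytic receptor, fell by 0.64 on the log2 scale from a mean of 248 to 158 CPM, again without overlap. Mertk, the receptor that is often used with TIMD4 to define resident cells, was at 164 to 198 and 129.7 to 207 CPM and did not pass (log2 -0.07 ± 0.09, adjusted p = 0.742).

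Genes known from macrophages of the serous cavities were lower in CCR2pos cells. Of 10 measured members 5 fell and none rose, against 1.62% and 2.7% over all genes. The median log2 fold change of -1.54 was the lowest of the 37 lists. The fluid around the heart holds such cells, and most of these genes were low. Prg4, lubricin, was at 7.2, 1.96, 4.16, 5.06 and 3.72 CPM in CCR2neg and 1.29, 0.278, 0.57, 0.464 and 0.619 CPM in CCR2pos libraries. The fractions did not overlap (log2 -2.79 ± 0.39, adjusted p = 4.20e-05). Alox15, a lipoxygenase, was at 33.4, 22.1, 7.55, 15.3 and 27.1 CPM in CCR2neg and 1.62, 5.05, 5.06, 1.91 and 6.12 CPM in CCR2pos libraries, again apart (log2 -2.38 ± 0.50, adjusted p = 0.00406). Serpinb2, an inhibitor of plasminogen activators, fell by 2.47, Saa3, an acute phase protein, by 1.73 and Selp, P-selectin, by 1.35 on the log2 scale. Selp lost the threshold in 9 of the 15 fits with libraries left out. All 5 calls were lost with the numbered label as a random effect, and all but that of Prg4 were lost without the block. Slpi, a protease inhibitor outside the list, fell by 1.89 from 5.42 to 40.4 to 2.59 to 7.65 CPM and lost it in 4.

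Cd207, langerin, was the second largest decrease among genes of moderate level. This lectin marks Langerhans cells of the skin and is also found on other phagocytes. It was at 239, 214, 76.9, 335 and 60.6 CPM in CCR2neg libraries 1 to 5 and at 43.6, 17.4, 5.41, 72 and 15.3 CPM in CCR2pos libraries 1 to 5. The level varied several-fold between numbers within each fraction, and each pair fell (log2 -2.9 ± 0.47, adjusted p = 0.000306). Tcim, a regulator of Wnt signalling, was at 12.9 to 21.3 CPM in CCR2neg and 5.06 to 6.56 CPM in CCR2pos libraries (log2 -1.61 ± 0.28). Sgce, epsilon-sarcoglycan, fell by 1.56 and Cdr2, a cytoplasmic protein known as a tumour antigen, by 1.31, both without overlap. Neurl1a fell by 1.24, a call lost in 11 of the 15 fits with libraries left out.

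Of 27 macrophage transcription factors 3 rose and 1 fell, against 2.7% and 1.62% over all genes. Nr4a1 (log2 0.40 ± 0.08), Id2 (0.34 ± 0.07) and Bhlhe40 (0.59 ± 0.12) rose and Klf2 (-0.29 ± 0.08) fell, Klf2 losing the call in 11 of the 15 fits. NR4A1 is needed for patrolling monocytes, ID2 for several dendritic cell lineages and BHLHE40 for tissue macrophage proliferation. In lipid handling 2 of 21 genes were called: Cd9, a tetraspanin of lipid-laden macrophages, fell (-0.65 ± 0.14), and Plin2, a coat protein of lipid droplets, rose (0.35 ± 0.09). Cd9 lost the call without number 2 and Plin2 in 6 of the 15 fits. In the iron and heme list of 13 genes Cd163 fell. That list also held Hpgd, a prostaglandin-degrading enzyme and not an iron or heme gene, which fell too (-0.69 ± 0.11). None of 17 autophagy, 17 glycolysis, 23 oxidative phosphorylation and 12 co-stimulation genes was called, where 4.31% of all genes were. An unadjusted p under 0.05 was found for 3, 2, 2 and 5 of them, and for 2280 of all 12795 genes. Of 24 proliferation genes Rrm2 alone was called (0.47 ± 0.12, lost in 5 of the 15 fits). Of 19 integrin and adhesion genes Itgb7 (0.96 ± 0.21) rose, a call lost without number 3, and Itgal fell. In the list of dissociation and stress genes, which tissue digestion can induce, 2 of 18 rose, Ier3 (0.27 ± 0.07) and Btg2 (0.26 ± 0.08), and these calls were lost in 9 and 11 of the 15 fits.

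**Figure D3:**
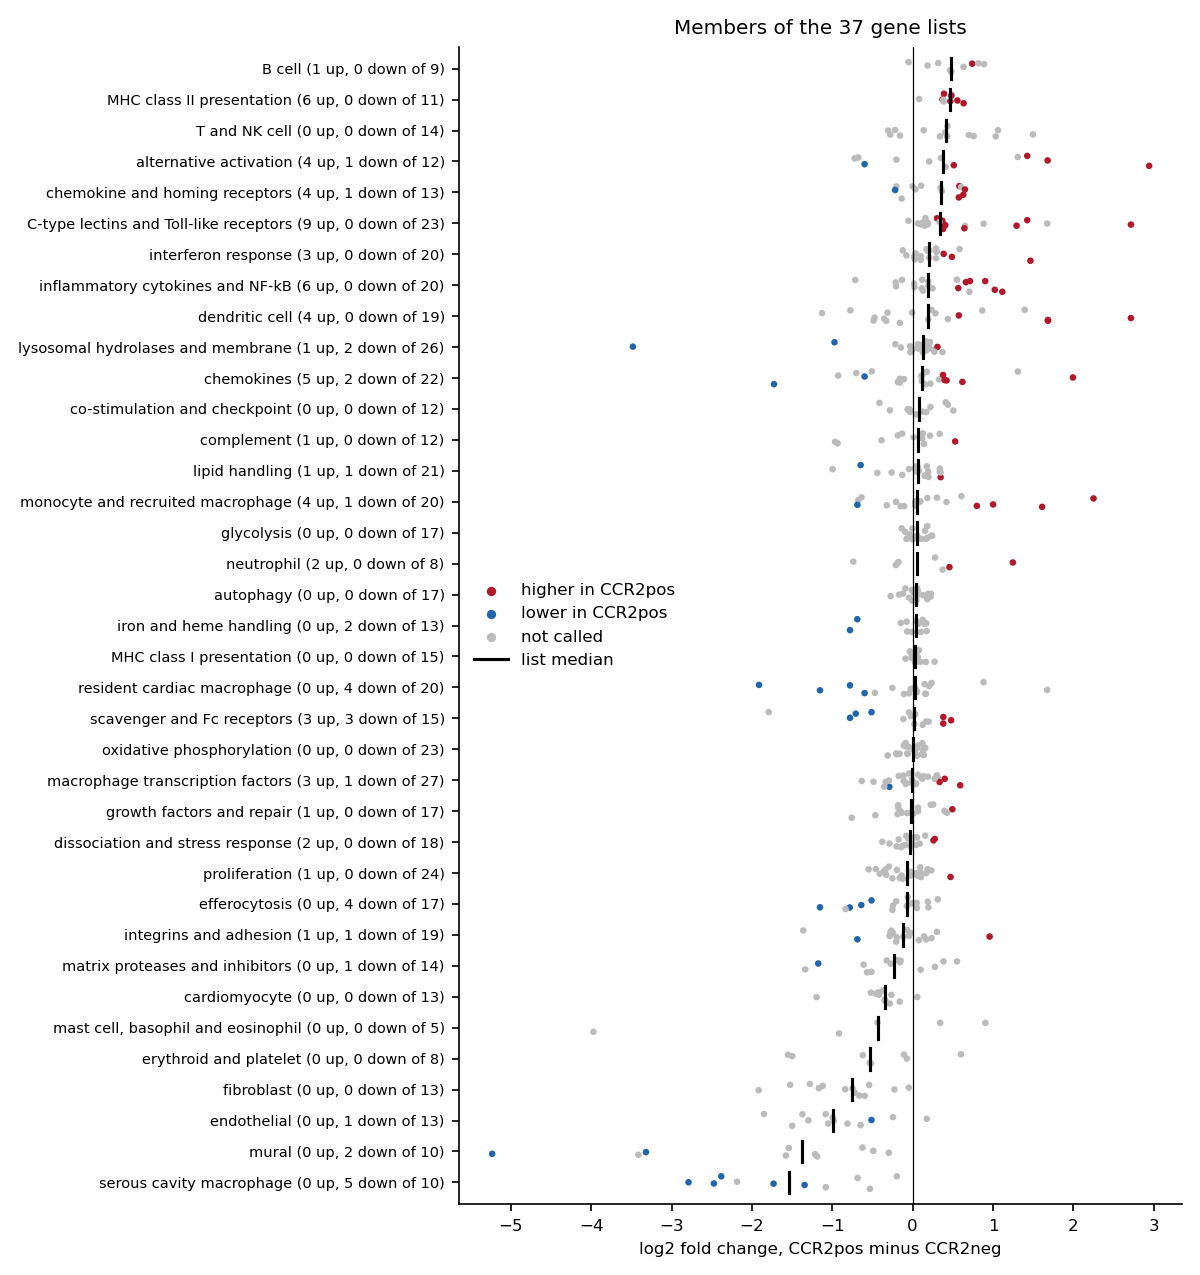
Log2 fold changes (CCR2pos minus CCR2neg) of the measured members of 37 gene lists, each a point, with the list median as a black bar; lists are ordered by their median. Red members were called higher and blue members lower. The MHC class II and lectin lists lie to the right at medians of 0.47 and 0.33, and the serous cavity list lies furthest to the left at -1.54.

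Summed markers of stromal cells were higher in CCR2neg libraries. The summed fibroblast markers reached 580.7 to 1404 CPM in CCR2neg and 580.6 to 726 CPM in CCR2pos libraries, endothelial markers 587 to 989 and 454 to 562 CPM, and mural markers 16.0 to 81.1 and 11.6 to 20.3 CPM. All 3 sums were lower in CCR2pos in 5 of 5 pairs, most of all in number 4. Of the members, 0 of 13 fibroblast, 1 of 13 endothelial (Cd36) and 2 of 10 mural genes (Myh11 and Cspg4) were called lower and none higher. Over all genes 1.62% were called lower and 2.7% higher. Myh11, the smooth muscle myosin, was at 2.59, 1.12, 0, 9.58 and 2.04 CPM in CCR2neg and at most 0.324 CPM in CCR2pos libraries, and its call was lost in 5 of the 15 fits. Col3a1, a collagen of fibroblasts, was at 21.1, 60.3, 10.3, 84.1 and 46.4 CPM in CCR2neg and 17.8, 14.3, 9.05, 23.8 and 15.9 CPM in CCR2pos libraries and did not pass (adjusted p = 0.123). Fabp4, found in capillary endothelium and in macrophages, was at 13.7, 53.3, 21, 118 and 68.1 CPM and 22.3, 25.2, 6.41, 33 and 34.5 CPM (adjusted p = 0.0695). Cav1, the coat protein of caveolae, was at 16.8 to 78.9 CPM in CCR2neg and 7.62 to 17.8 CPM in CCR2pos libraries. CCR2neg library 4 was highest for all 3 genes, and Cav1 passed (log2 -1.43 ± 0.30, adjusted p = 0.00397). Plpp3, a lipid phosphatase of endothelium, and Mgll, a monoglyceride lipase, were also highest there and fell by 1.18 and 1.57, calls that were lost in 12 of the 15 fits each. The part of stromal RNA in these differences was not tested.

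Summed neutrophil, B cell and T and NK cell markers were higher in the CCR2pos library of each pair, and those of mast cells, basophils and eosinophils were not. The summed neutrophil list was 124 to 155 CPM in CCR2neg and 172 to 219.5 CPM in CCR2pos libraries, higher in 5 of 5 pairs. Of its 8 measured members 4 had a positive fold change, and the list median was 0.05. Csf3r (0.46 ± 0.11) and the decoy receptor Il1r2 (1.25 ± 0.27) were called, where 4.31% of all genes were. The listed neutrophil genes Retnlg, Ly6g, Camp, Ngp and Ltf were not in the count table. Csf3r lost the call without number 3 and without number 5. The B cell sum was 698 to 1169 and 798 to 1270.4 CPM, with Cd79a called among 9 (0.74 ± 0.13), and the T and NK cell sum was 51.6 to 107 and 57.3 to 213 CPM with 0 of 14 called (2 at an unadjusted p under 0.05). Cd3e, a CD3 subunit of the T cell receptor complex, was at 0.529 to 4.61 CPM in CCR2neg and 0.917 to 27.2 CPM in CCR2pos libraries. Its highest value was in CCR2pos library 3. The mast cell, basophil and eosinophil sum was 3.35 to 62.2 CPM in CCR2neg and 4.20 to 10.7 CPM in CCR2pos libraries, higher in CCR2pos in 2 of 5 pairs, and none of 5 measured members was called (1 at an unadjusted p under 0.05). No cardiomyocyte gene of 13 was called, and none had an unadjusted p under 0.05. Of all 12795 genes 2280 had an unadjusted p under 0.05.

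**Figure D4:**
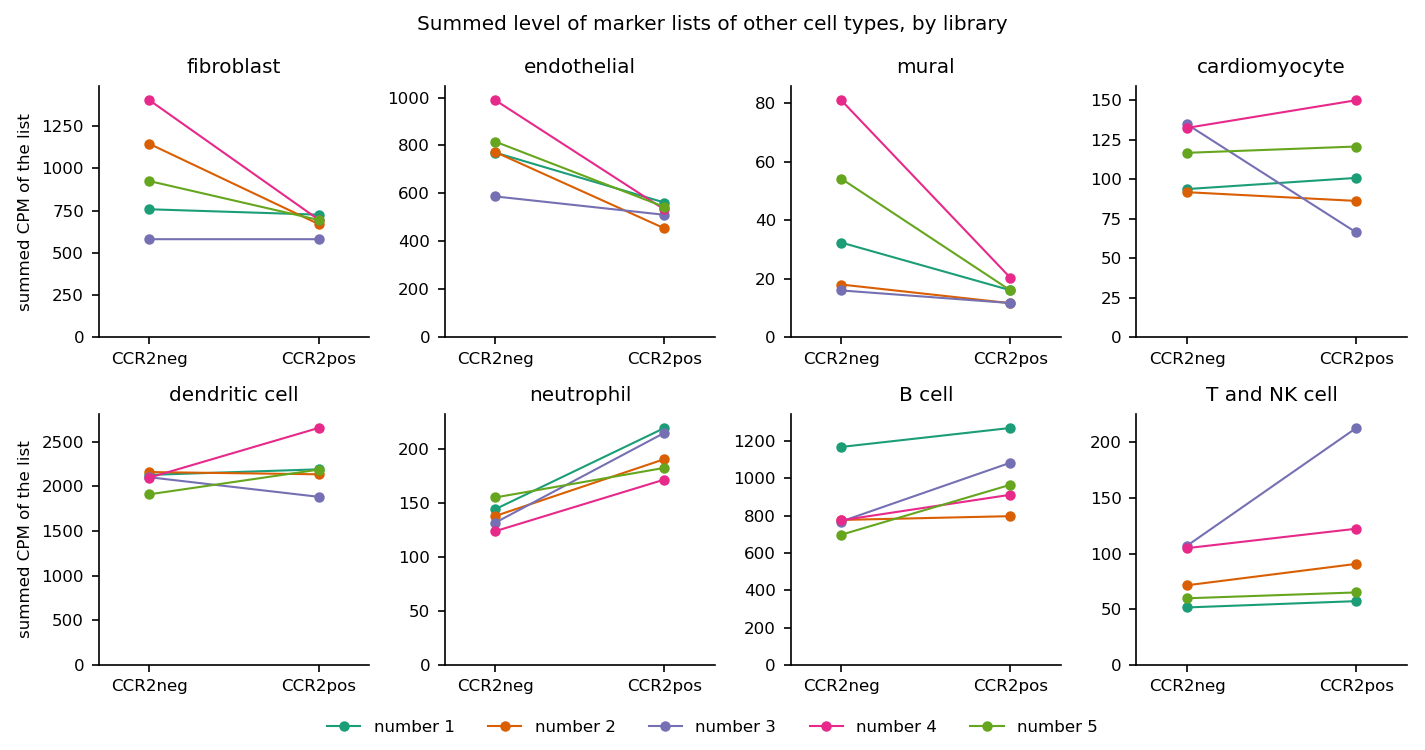
Summed levels (CPM) of 8 marker lists of other cell types in the 10 libraries, with lines joining the libraries of a number. Fibroblast, endothelial and mural sums fall from CCR2neg to CCR2pos in each pair, most in number 4, and neutrophil, B cell and T and NK cell sums rise in each pair.

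The same contrast between fractions was available in the other cells of the study and shares no library with the one above. All contrasts came from the same fit, with a shared estimate of the spread. The TFEBwt Cre-neg libraries also carry the same TFEBwt numbers and share their block terms. Whether the same number means the same animal was not given, so that contrast may not be independent. In TFEBwt Cre-neg cells 808 genes were called (6.31%), in mac-TFEB cells 481 (3.76%) and in TFEBTG Cre-neg cells 1228 (9.6%). Of the 552 genes called in CX3CR1-Cre cells, 498, 503 and 489 had the same sign there. The share with the same sign over all genes is not given here. In TFEBwt Cre-neg cells 291 of the 552 were also called, 52.7% of the 552 and 36% of the 808. In mac-TFEB cells 219 were also called, 39.7% of the 552 and 45.5% of the 481. In TFEBTG Cre-neg cells 250 were also called, 45.3% of the 552 and 20.4% of the 1228. Ccl8 had log2 fold changes of 1.68 ± 0.21 in TFEBwt Cre-neg, 2.13 ± 0.24 in mac-TFEB and 1.27 ± 0.23 in TFEBTG Cre-neg cells. Ctsk had -3.22 ± 0.31, -2.05 ± 0.33 and -2.35 ± 0.34, and Vsig4 had -2.08 ± 0.25, -1.74 ± 0.28 and -1.67 ± 0.28 in the same order. All 3 genes thus differed between fractions in the same direction in the 4 kinds of cells.

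The size of the fraction difference was then tested between kinds of cells, gene by gene, as a difference of log2 fold changes. No gene passed an adjusted p of 0.05 in edgeR's quasi-likelihood test, either for CX3CR1-Cre minus TFEBwt Cre-neg cells (1094 genes at an unadjusted p under 0.05, lowest adjusted p = 0.0726) or for CX3CR1-Cre minus mac-TFEB cells (1097 genes, lowest adjusted p = 0.0562). DESeq2 called 26 and 42 genes and limma-voom with quality weights 7 and 18. Against TFEBwt Cre-neg cells edgeR called 10 genes without number 1 and 14 without CCR2neg library 1. For 7 of the 11 class II genes, H2-Aa, H2-Ab1, H2-Eb1, Cd74, H2-DMa, H2-DMb1 and Ciita, the fraction difference in CX3CR1-Cre cells was below that in each of the 3 other kinds of cells. For the 4 others, H2-DMb2, H2-Oa, H2-Ob and Ctss, it was above that in at least 1 other kind. H2-DMb2 had 0.63 ± 0.12 in CX3CR1-Cre, 0.30 ± 0.12 in TFEBwt Cre-neg, 0.71 ± 0.14 in mac-TFEB and 0.42 ± 0.14 in TFEBTG Cre-neg cells. H2-Eb1 rose from a mean of 2951 to 4079 CPM in CX3CR1-Cre cells. In TFEBwt Cre-neg cells it went from 1289 to 3195 CPM, in mac-TFEB cells from 1135 to 2896 CPM and in TFEBTG Cre-neg cells from 645 to 2586 CPM. The CCR2neg mean of the CX3CR1-Cre cells was the highest of the 4, near the CCR2pos means of the others. The difference from TFEBwt Cre-neg was -0.85 ± 0.19 (adjusted p = 0.0993) and from mac-TFEB -0.93 ± 0.20 (adjusted p = 0.135), so neither passed. For H2-Aa they were -0.64 ± 0.15 and -0.70 ± 0.16, and for Cd74 -0.55 ± 0.15 and -0.65 ± 0.16.

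The called genes without the same sign elsewhere were those outside the 498, 503 and 489 of 552 given above, and examples follow. Mgll fell in CX3CR1-Cre cells and had 0.57 ± 0.44 in TFEBwt Cre-neg cells. Neurl1a fell and had 0.33 ± 0.39 in mac-TFEB cells. Bhlhe40 rose by 0.59 ± 0.12 in CX3CR1-Cre cells and had a log2 fold change of -0.32 ± 0.12 in TFEBwt Cre-neg cells, a difference of 0.91 ± 0.17 (adjusted p = 0.0726). Retnla rose by 1.68 ± 0.31 and had -0.25 ± 0.30 in TFEBwt Cre-neg and 2.21 ± 0.36 in mac-TFEB cells, and the difference from the former did not pass (adjusted p = 0.103). Mmp13 fell by 1.18 and had -0.32 ± 0.14 in TFEBwt Cre-neg and 0.18 ± 0.16 in TFEBTG Cre-neg cells (adjusted p of the difference from TFEBwt Cre-neg = 0.126).

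**Figure D5:**
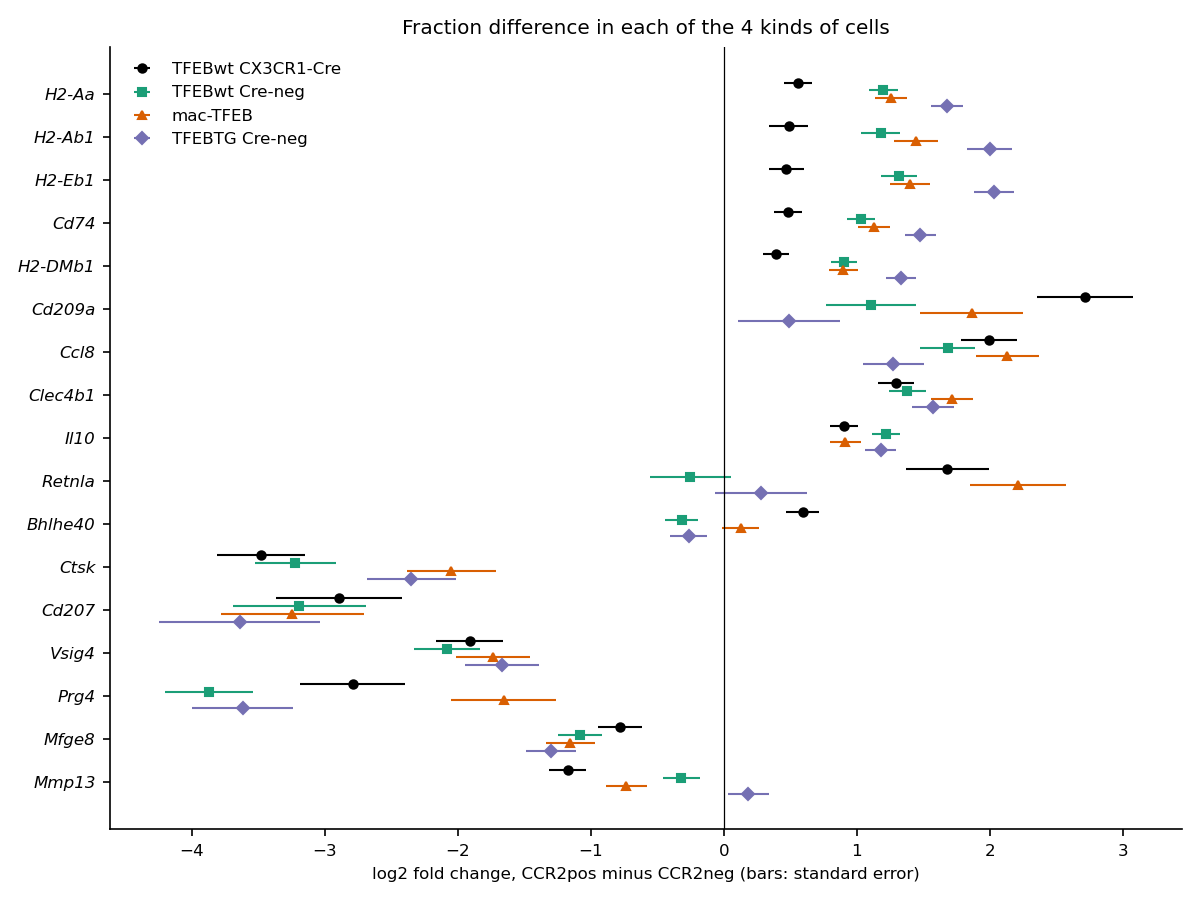
Log2 fold changes between fractions (CCR2pos minus CCR2neg, bars show the standard error) of 17 genes in the 4 kinds of cells. The 5 class II genes plotted are H2-Aa, H2-Ab1, H2-Eb1, Cd74 and H2-DMb1. Their black CX3CR1-Cre points lie between 0.39 and 0.56, to the left of the other 3 kinds of cells. The points of Clec4b1, Il10 and Vsig4 lie closer together, and those of Ccl8 range from 1.27 in TFEBTG Cre-neg to 2.13 in mac-TFEB cells.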

How the data were processed

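Read counts of polyA RNA from flow-sorted cardiac macrophages were used, 10 of 36 libraries being described. Per the labels' protocols, a HiSeq-3000 read single, non-stranded reads of SMARTer Ultra Low cDNA. The authors deposited whole-number raw counts per gene. Genome build GRCm38 and the tools HTSeq, TopHat2 2.0.10, TopHat, Bowtie2, edgeR and DESeq appear in the submitters' processing notes, without parameters. The table holds 12795 genes, after a filter not given in the sources used here. Positions come from GENCODE vM21 (GRCm38).

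One edgeR 4.0.16 fit (R 4.3.3, TMM, minimum count 10, which removed no gene) held 8 group means and, as a block, 9 numbered labels (such as TFEBwt1) over 36 libraries. P-values from the quasi-likelihood F-test were adjusted by Benjamini-Hochberg over all genes. The block was used because the comparison was defined as paired by number. In the 10 CX3CR1-Cre libraries all 5 numbers paired: same-number correlations were 0.221 to 0.537, and others -0.282 to 0.0735. The pairing of the other libraries was not checked in this way. Chi-square per degree of freedom between replicate libraries was 22.9 to 56.7, above sampling noise. With a common dispersion of 0.0413, the spread between libraries and not counting error sets the precision. The code was tested on simulated data.

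The members and the 37 gene lists (610 entries, 572 genes, 552 measured) were chosen with earlier results of these data known. Named were Ccr2, Cx3cr1 and Tfeb, the 15 largest called increases and decreases at a mean of 10 CPM or more in a fraction, 6 members of each pathway list or 3 of each list of other cells by smallest p, and all class II genes. One of the largest increases is not reported here. Adgre1, Cd68 and Mertk are macrophage markers fixed for the check. Ccl12, Cd14, Clec4a1, Clec4n and the families in the closing section were named after their values were seen. Alternatives changed the block, the libraries, the normalization, the filter, or the tool (DESeq2 1.42.0, limma 3.58.1).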

Additional observations from a re-analysis of the deposited data

Results flagged for a closer look

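Of 268 groups checked (134 named genes in 2 fractions), 18 held a library whose gap to the nearest other library exceeded Dixon's 95% limit of 0.71 of the group's range; chance alone flags about 1 in 20 groups. Of the 18, 7 were CCR2neg library 3 and 3 were CCR2pos library 3. CCR2neg library 3 was lowest for Adgre1 (2053 CPM, next 2895 CPM), Clec4n (221 CPM, next 334 CPM) and Tlr1 (21.4 CPM, next 38.1 CPM). It was highest for Ear2 (2.66 CPM, next 1.01 CPM), Fcgr2b (648 CPM, next 557 CPM), Lrp1 (303 CPM, next 237 CPM) and Rab11fip1 (11.2 CPM, next 5.11 CPM). CCR2pos library 3 was highest for Cfb (19.4 CPM, next 9.39 CPM), Dpp4 (17.4 CPM, next 9.92 CPM) and Itgb7 (27.1 CPM, next 12.7 CPM).

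Retnla was far highest in number 2 of both fractions, at 642 CPM in CCR2neg (next 106 CPM) and 1219 CPM in CCR2pos (next 381 CPM). Cd68 was highest in CCR2neg library 2 (2382 CPM, next 2032 CPM). CCR2neg library 1 was highest for H2-DMb2 (26.2 CPM, next 16.6 CPM) and Plac8 (10.3 CPM, next 4.84 CPM), and CCR2pos library 5 for Saa3 (90.7 CPM, next 20.8 CPM). Myh11 was highest in CCR2neg library 4 (9.58 CPM, next 2.59 CPM) and, at a trace level, in CCR2pos library 1 (0.324 CPM, next 0.0619 CPM).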

How the results depend on the processing

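No call of a named gene changed sign in the 25 alternatives. The pairing decided most of the count: without the replicate block 102 genes passed (76 higher, 26 lower), and with the numbered label as a random effect (correlation 0.266) 407. The 10 libraries alone gave 344 (223 higher, 121 lower). DESeq2 gave 790, with 331 lower, and limma-voom with quality weights 883, with 376 lower. Library totals, added after seeing the data, gave 198 higher and 407 lower. Leaving out a number or a library gave 329 to 654 calls, 216 to 393 higher and 113 to 261 lower.

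The tests between kinds of cells gave 26 and 7 genes against TFEBwt Cre-neg cells, and 42 and 18 against mac-TFEB cells, by DESeq2 and limma-voom. The 20 TFEBwt libraries alone gave 1 gene against TFEBwt Cre-neg, library totals gave 1 against mac-TFEB, and leaving out a number gave 0 to 10 and 0 to 0. The cause was not tested. Sign changes were seen in 2 uncalled genes. Cx3cr1 had 0.0031 in the 20 TFEBwt libraries, 0.0045 with DESeq2 size factors, 0.0045 in DESeq2, and -0.0764 to 0.0736 over the fits with libraries left out, and Ctss had -0.0300 with library totals. Genes below about 1 CPM rest on few reads.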

Other observations

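Several gene families, picked after their values were seen, held calls in 1 direction only, given as a description. Over all genes 2.7% were called higher and 1.62% lower. Families without calls were not listed, so the counts describe these picks only. Of the 6 measured Ly6 genes 4 rose in CCR2pos libraries, all on chromosome 15: Ly6e (1575 to 1963 against 2375 to 2978 CPM, log2 0.61 ± 0.08), Ly6a (1.02 ± 0.25), Ly6i (1.47 ± 0.39) and Ly6c2. All 3 SIRP beta genes Sirpb1a, Sirpb1b (1.18 ± 0.16) and Sirpb1c (0.92 ± 0.16) rose, although reads of such near-identical copies can be split between them. The orphan nuclear receptor genes Nr4a2 (0.71 ± 0.14) and Nr4a3 (0.86 ± 0.15) rose beside Nr4a1, and Tmem176a (0.55 ± 0.08) and Tmem176b (0.44 ± 0.08), neighbours on chromosome 6, rose without overlap. Of 11 Ms4a genes 4 rose, led by Ms4a4c (40.4 to 54.4 against 82.1 to 123 CPM, log2 1.05 ± 0.14), and of 9 Cd300 receptor genes 3 rose.

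Some families among the decreases, picked in the same way, encode proteins of the cytoskeleton and nuclear envelope. Over all genes 1.62% were called lower. Of 6 Pdlim genes, which link actin to signalling, Pdlim1 (42.7 to 56.7 against 24.4 to 39.5 CPM, log2 -0.75 ± 0.10), Pdlim7 (-0.79 ± 0.18) and Pdlim2 (-0.32 ± 0.09) fell. Of 3 actin-oxidising Mical genes Mical1 (-0.56 ± 0.12) and Mical2 (-0.79 ± 0.18) fell, and of 3 nesprin genes Syne1 (-0.83 ± 0.23) and Syne2 (-0.54 ± 0.14). Beside Sgce, its imprinted neighbours Peg10 (-1.99 ± 0.57) and Ppp1r9a (-0.78 ± 0.18) on chromosome 6 fell. They too were picked after their values were seen, and other genes of that region are not given here. Peg10 was low, at a mean of 2.27 CPM in CCR2neg and 0.833 CPM in CCR2pos libraries. In the fits that left out a number or a library, Peg10 and Pdlim2 lost the call in 11 of 15, Ly6i in 10, Syne2 in 7, Syne1 in 6, and Ly6a in 4. Pdlim7 and Ppp1r9a lost it without number 3 and Mical2 without number 5.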
